A study of Mus musculus with 32 samples.

Results

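The genes described here are 37 genes of autophagy: the proteins that build the autophagosome, the receptors that load it, and 2 transcription factors of the pathway. They were taken by symbol from a list, out of 55471 genes in the count table, with no threshold set here on their measured values. Symbols were matched through the authors' deposited log2 values, which cover 13432 genes, so every member is among those. All 37 passed the filter on low counts, which after that matching is not a result about them. Liver RNA came from male C3H/HeNCrl mice, an inbred strain, all of them fed a high fat diet. The mice were housed under a short light (SL) or a long light (LL) photoperiod and sampled at zeitgeber time (ZT, hours on the light schedule) 0, 6, 12 or 18, which gave 8 groups of 4 mice and 32 libraries of polyadenylated RNA. LL stands here for the long photoperiod, and the labels used here give neither the hours of light nor the ages of the mice. No group lacked the high fat diet, so every value is from liver under that diet. The p-values of the main tests rest on the spread between mice within groups, estimated over all 8 groups together.

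Autophagy encloses cytoplasm in a double membrane and delivers it to the lysosome. A kinase complex starts the process, a lipid kinase complex marks the site, lipid carriers and membrane vesicles extend the membrane, and a pair of ubiquitin-like conjugation reactions attach ATG8 proteins to it, where cargo receptors bind. In liver it supplies amino acids, glucose and lipid during fasting, and it removes damaged mitochondria. Much of its control is on proteins already made, so RNA levels are not a measure of autophagic flux.

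Library totals ran from 9095615 to 27462776 reads. The 6 hepatocyte markers summed to between 101000 and 132600 CPM (read counts scaled to a common library total) in every library, so the labelled tissue and the RNA were not at odds. In LL ZT12 replicate 3 the correlation of log2 CPM with its group mates averaged 0.9686, and in every other library at least 0.9808. Markers of skeletal muscle summed to between 0.432 and 163.7 CPM, with the highest group mean in LL ZT18, where Bnip3 was also high. The lowest group mean was in SL ZT6, where Bnip3 was high as well. A set of 4 libraries that stood apart (LL ZT0 replicate 2, LL ZT12 replicate 3, and LL ZT18 replicates 2 and 3) was also left out together, a check chosen after seeing the data. In bulk liver, fewer cells of a type and less RNA per cell cannot be told apart.

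Promoter sequence is shown for 4 members: 3 whose RNA differed between photoperiods over the day and whose window holds the E-box letters CACGTG, which clock and TFEB family factors can bind, and Sqstm1, which moved the other way and whose window does not. Each line gives 250 bases before to 20 bases after the annotated start, in transcript direction, from RefSeq on GRCm38.p6. Capitals mark the E-box or, in Atg3, also the longer letters TCACGTGA. The windows are chr7:138909487-138909756 on the minus strand for Bnip3, chr16:45158579-45158848 on the plus strand for Atg3, chr14:47568415-47568684 on the minus strand for Atg14 and chr11:50210801-50211070 on the minus strand for Sqstm1.
Bnip3: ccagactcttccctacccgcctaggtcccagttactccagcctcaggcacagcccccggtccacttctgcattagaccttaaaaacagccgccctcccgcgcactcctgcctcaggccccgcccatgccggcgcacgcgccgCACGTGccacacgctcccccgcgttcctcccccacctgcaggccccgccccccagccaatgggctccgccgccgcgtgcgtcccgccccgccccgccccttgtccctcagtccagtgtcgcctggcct
Atg3: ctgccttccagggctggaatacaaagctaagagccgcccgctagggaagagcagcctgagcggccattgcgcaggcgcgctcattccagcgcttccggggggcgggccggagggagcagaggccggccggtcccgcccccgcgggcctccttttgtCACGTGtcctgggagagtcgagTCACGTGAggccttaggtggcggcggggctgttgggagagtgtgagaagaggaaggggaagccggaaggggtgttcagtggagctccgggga
Atg14: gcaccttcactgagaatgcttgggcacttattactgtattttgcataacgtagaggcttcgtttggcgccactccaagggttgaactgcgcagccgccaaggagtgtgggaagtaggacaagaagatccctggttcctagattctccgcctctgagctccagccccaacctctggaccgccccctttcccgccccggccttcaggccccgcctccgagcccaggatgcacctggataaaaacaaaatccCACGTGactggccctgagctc
Sqstm1: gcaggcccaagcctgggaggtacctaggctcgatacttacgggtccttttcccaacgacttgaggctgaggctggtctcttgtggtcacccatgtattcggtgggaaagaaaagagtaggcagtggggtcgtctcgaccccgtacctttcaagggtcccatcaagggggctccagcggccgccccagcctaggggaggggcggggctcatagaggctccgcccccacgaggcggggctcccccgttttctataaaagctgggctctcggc
The table of promoters held 30 of the 37 members in 35 windows of 300 bases. The E-box CACGTG, which reads the same on both strands, was in the windows of 5 members, against 7.15% of all 32851 windows. It began at position -108 in Bnip3, -1 in Atg14, -14 in Atg5, -132 in Atg7, and -94 and -71 in Atg3. Positions count from the RefSeq start of the window. The Atg7 window (chr6:114670846-114671145, plus strand) lies inside GENCODE gene bounds that begin at 114643097. The Atg14 window likewise lies inside bounds that end at 47570649 on the minus strand. The starts used for these genes are thus not the outermost ones. Of these 5, Bnip3, Atg14 and Atg3 differed between photoperiods over the day, and Atg5 and Atg7 did not pass that test. Optn, Map1lc3b, Atg2a and Ambra1 also passed it, with the same order of SL minus LL signs as Bnip3, Atg14 and Atg3. Their windows did not hold CACGTG. A link between these letters and the direction of a gene was not tested. TCACGTGA, a longer form that contains the E-box and is the core of the lysosomal gene element bound by TFEB, was in the Atg3 window alone among members and in 0.974% of all windows. The letters TTATGTAA (0.938% of all windows), TAGGTCA (2.61%) and TGTTTAC (3.65%), searched on both strands, were in no member window.

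Levels between genes were compared as mean CPM per kilobase of exon. The ATG8 genes Gabarapl1 and Gabarap stood at 140.7 and 92.06 CPM per kilobase, followed by the cargo receptor Sqstm1 at 79.37. Bnip3 at 36.86, Nbr1 at 36.3 and Optn at 27.24 came next, so cargo receptors held 4 of the first 6 places. At the low end were Tfe3 at 2.517, the lipid kinase subunit Pik3r4 at 2.498 and Tfeb at 1.556 CPM per kilobase. Within a photoperiod the levels changed little: the ratio of the highest to the lowest of the 4 ZT means had a median of 1.19 in SL and 1.154 in LL over the 37 genes. It was under 1.5-fold in 35 genes in SL and 36 in LL, with Bnip3 highest at 2.198 in SL and 1.765 in LL.

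**Figure D1:**
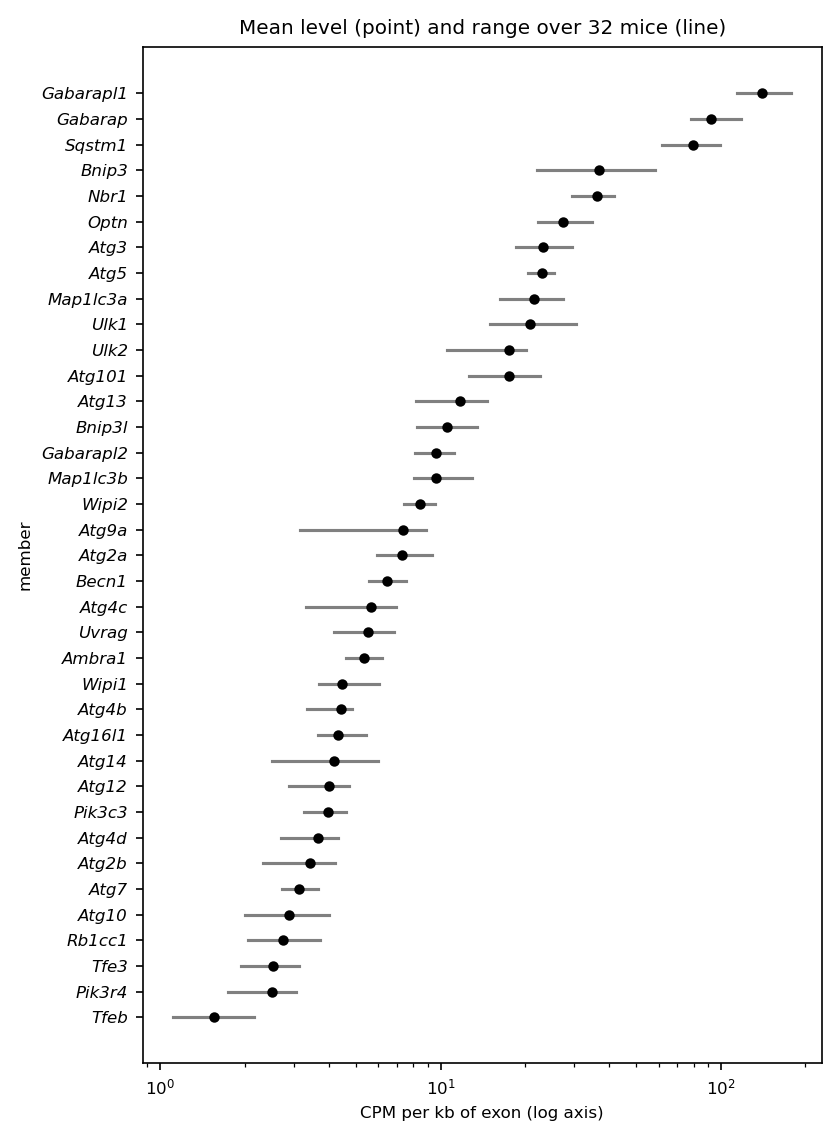
Mean level of each of the 37 genes over 32 mice (points) in CPM per kilobase of exon on a log axis, with lines from the lowest to the highest mouse. Gabarapl1 at 140.7 and Gabarap at 92.06 stand highest and Tfeb at 1.556 lowest.

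The question put first was whether the SL minus LL difference of each gene changed over the day. It did for 16 of the 37 genes (edgeR quasi-likelihood F-test of the photoperiod by ZT interaction, adjusted p under 0.05 over all tested genes), against 32.7% of the 14456 genes tested. Ordered by role, the calls were 3 of 5 genes of the initiation kinase complex (Ulk1, Atg13, Rb1cc1), 2 of 6 of the lipid kinase complex (Atg14, Ambra1), 3 of 5 of membrane supply (Wipi2, Atg2a, Atg2b), 2 of 9 of conjugation (Atg3, Atg12), 1 of 5 ATG8 genes (Map1lc3b), 4 of 5 cargo receptors (Sqstm1, Optn, Bnip3, Bnip3l) and Tfe3 of the 2 factors. The difference in 24 h rhythm, a 2-term version of the test, called 18 genes, adding Atg10 and Map1lc3a, against 36.0% of all genes. The added call of Atg10 became 0.102 without the 4 libraries that stood apart and 0.106 without the filter, and that of Map1lc3a 0.0974 without the filter. Without the 4 libraries that stood apart, the interaction called 19 members and 5076 genes in all. Of the 16 calls, 12 held in all 41 other settings, and the exceptions were Wipi2, lost in 10, Ambra1 in 5, Atg12 in 2 and Bnip3l in 2.

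**Figure D2:**
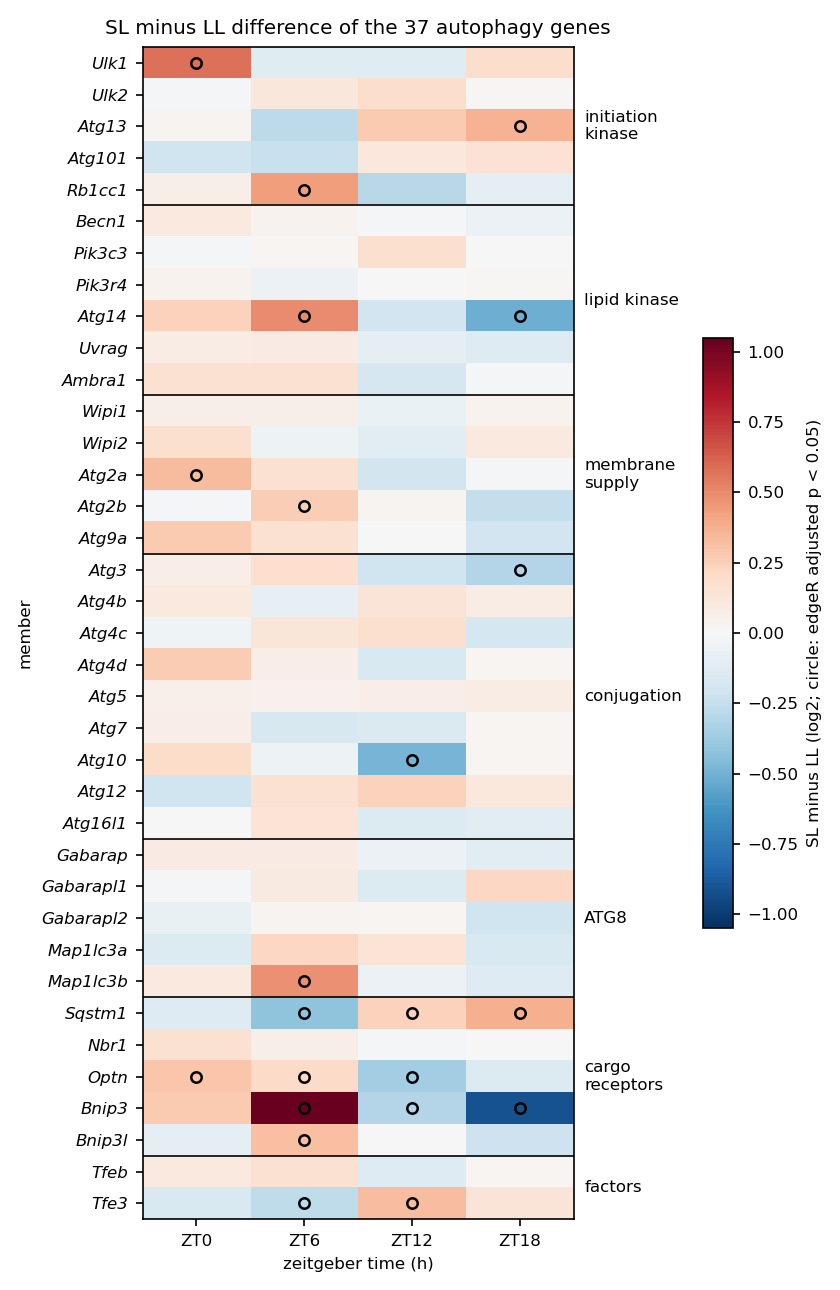
SL minus LL difference on the log2 scale of the 37 genes at each ZT (red, higher in SL), in order of role, with circles where edgeR's adjusted p was under 0.05. Bnip3 changes from 1.04 at ZT6 to -0.92 at ZT18, while Sqstm1 changes from -0.42 to 0.37.

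At ZT0, 3 members differed, all higher in SL (Ulk1, Atg2a, Optn), against 11% of all genes in either direction, 6.07% higher and 4.97% lower in SL. At ZT6, 9 members differed, against 15.3% of all genes: Rb1cc1, Atg14, Atg2b, Map1lc3b, Optn, Bnip3 and Bnip3l were higher in SL (6.9% of all genes) and Sqstm1 and Tfe3 lower (8.38%). At ZT12, 5 differed, against 12.4%: Sqstm1 and Tfe3 were higher in SL (6.05%) and Atg10, Optn and Bnip3 lower (6.4%). At ZT18, 5 differed, against 9.21%: Atg13 and Sqstm1 were higher in SL (4.82%) and Atg14, Atg3 and Bnip3 lower (4.39%). The median SL minus LL difference of the 37 genes was 0.07 at ZT0, 0.09 at ZT6, -0.06 at ZT12 and -0.0037 at ZT18 on the log2 scale, where that of all genes was -0.0015, -0.0065, -0.0072 and 0.013. These counts depended on the settings and on single mice. With only the groups compared in the fit the ZT12 count was 0, and without the filter the counts were 1 at ZT12 and 1 at ZT0. At ZT6 the count was 4 without SL ZT6 replicate 2 and 5 without SL ZT6 replicate 3, LL ZT6 replicate 3 or LL ZT6 replicate 4. At ZT12 it was 1 without SL ZT12 replicate 2, 2 without SL ZT12 replicate 3 or 4, and 3 without LL ZT12 replicate 1 or 4. At ZT18 it was 3 without SL ZT18 replicate 4, LL ZT18 replicate 2 or LL ZT18 replicate 3. Leaving out LL ZT12 replicate 3 raised the counts to 6 members and 2255 genes at ZT0 and to 8 members and 1980 genes at ZT18.

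Summed markers of other cell types also stood apart between photoperiods at some of these times. The 4 cholangiocyte markers summed to between 4.98 and 5.668 CPM in the SL mice at ZT0 and between 12.97 and 15.74 in the LL mice, and at ZT12 to between 11.4 and 14.31 in SL and between 5.758 and 9.521 in LL. All 4 had reads in every library, and Sox9 alone ran from 2.341 to 13.23 CPM. Sox9 had a median of 6.674 CPM, against 1.232 for Krt19, 0.8518 for Krt7 and 0.9631 for Epcam, so the sum mostly follows Sox9. The highest value was in LL ZT0 replicate 2 for Sox9, in LL ZT12 replicate 3 for Krt19 and Krt7, and in SL ZT18 replicate 1 for Epcam. These markers thus did not share a highest library. The 5 endothelial markers had means of 206.8 CPM in SL and 251.1 in LL at ZT0, and 245 and 193.4 at ZT12. The 5 macrophage markers had means of 301.9 CPM in SL and 235.5 in LL at ZT12, and the 4 lymphocyte markers of 0.814 and 1.33 CPM at ZT6. None of the 4 lymphocyte markers passed the filter on low counts, and Cd3e had no read in 2 libraries and Ms4a1 in 3. In each of the comparisons given here the groups did not overlap. At the other times, and in the other marker lists at every ZT, the groups overlapped. The part of these cell types in the members' differences was not tested.

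Averaged over the 4 ZTs, none of the 37 genes differed between photoperiods by edgeR's adjusted p, nor did any of the 14456 genes (0.0%), and DESeq2 called 0 members. At an unadjusted p under 0.05 there were 2, Ulk1 with a log2 difference of 0.13 ± 0.06 (SE) and Map1lc3b with 0.10 ± 0.04. The mean differences of the members ran from -0.08 in Atg10 to 0.13 in Ulk1.

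In the initiation complex, Ulk1 was higher in SL at ZT0. Ulk1, the kinase that starts autophagy (ENSMUSG00000029512, chr5:110784488-110810097, minus strand), measured 182, 197, 148 and 137 CPM in the 4 SL mice at ZT0 and 135, 97.7, 98.8 and 112 CPM in the LL mice. The SL mice were all above the LL mice, by 0.58 ± 0.13 (log2 difference ± SE, edgeR adjusted p = 0.00197). At the other times the groups overlapped, with means of 134.0 against 146.5 CPM at ZT6, 115.9 against 126.3 at ZT12 and 150.5 against 132.5 at ZT18. In SL the level varied over the day, from 165.9 ± 28.2 (SD, n = 4) CPM at ZT0 to 115.9 ± 14.1 at ZT12 (edgeR adjusted p = 0.0161), a call lost without SL ZT0 replicate 2 or SL ZT12 replicate 2 (adjusted p up to 0.0572).

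Atg13, the regulatory subunit that holds the complex together (ENSMUSG00000027244, chr2:91674618-91710576, minus strand), measured 38.5, 47.2, 45.3 and 45.6 CPM in SL at ZT6 against 47.9, 56.1, 54.6 and 54.4 in LL. At ZT18 it measured 63.9, 56.1, 54.9 and 60.1 CPM in SL against 39.8, 44.9, 45.5 and 52.2 in LL. The order of the photoperiods thus turned between ZT6 and ZT18 with no overlap at either time, and the edgeR adjusted p was 0.0762 at ZT6 (log2 difference -0.27 ± 0.10) and 0.0218 at ZT18 (0.37 ± 0.10). The ZT18 call was lost without any of SL ZT18 replicates 1 and 4 or LL ZT18 replicates 1, 2 and 3 (adjusted p up to 0.0988), and without the 4 libraries that stood apart (0.0733). The time of day call of Atg13 in SL (0.0211) became 0.111 without SL ZT6 replicate 1. Rb1cc1, the scaffold of the complex, was higher in SL at ZT6, with means of 47.09 ± 6.86 against 34.63 ± 0.769 CPM (SD, n = 4) and a log2 difference of 0.44 ± 0.12 (edgeR adjusted p = 0.012, and 0.0614 without SL ZT6 replicate 2). Rb1cc1 shares 558 exon bases with 4732440D04Rik on the other strand, which had 786 reads against 20839. Ulk2 and Atg101 passed no test, with interaction adjusted p of 0.699 and 0.117. In LL ZT12 replicate 3, Ulk2 measured 63.08 CPM against 112.2, 108.7 and 109.4 in its group mates.

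The lipid kinase itself did not pass: Pik3c3, the catalytic subunit, Pik3r4, its regulatory subunit, Becn1, the core scaffold, and Uvrag, the endosomal subunit, had edgeR interaction adjusted p of 0.667, 0.936, 0.56 and 0.604. Exons of Becn1 overlap 3104 bases of Cntd1 on the other strand, a gene with 109 reads in all. What passed was Atg14, the subunit that directs the kinase to autophagosome formation (ENSMUSG00000037526, chr14:47540893-47570649, minus strand). At ZT6 Atg14 measured 19.96, 25.9, 24.2 and 19.9 CPM in SL and 17.3, 15.8, 12.9 and 17.9 CPM in LL, without overlap. At ZT18 the SL mice measured 19.7, 13.6, 10.8 and 12.3 CPM and the LL mice 16.3, 20.3, 23.6 and 20.9 CPM, overlapping through SL replicate 1. The log2 difference was 0.50 ± 0.15 at ZT6 (edgeR adjusted p = 0.0199) and -0.52 ± 0.15 at ZT18 (0.0259). Leaving out SL ZT6 replicate 2 or 3 or LL ZT6 replicate 3 ended the ZT6 call (up to 0.0995), and leaving out SL ZT18 replicate 2, 3 or 4 or LL ZT18 replicate 2, 3 or 4 ended the ZT18 call (up to 0.111). It also ended without the 4 libraries that stood apart (0.2) and with only the groups compared (0.0802). Ambra1, which binds Becn1, reached an interaction adjusted p of 0.0275 with no call at a single ZT, and lost it without SL ZT12 replicate 1 or 3 or LL ZT12 replicate 1 or 2 (up to 0.0784) and without the filter (0.184).

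Among genes of membrane supply, Atg2a and Atg2b encode the lipid transfer proteins that feed the growing membrane. Atg2a (ENSMUSG00000024773, chr19:6241668-6262335, plus strand) measured 70.8, 62.5, 59.8 and 61.1 CPM in SL at ZT0 and 50.3, 59.3, 45.5 and 46.5 in LL. Every SL mouse was above every LL mouse, by 0.33 ± 0.09 on the log2 scale (edgeR adjusted p = 0.0124, up to 0.0731 without SL ZT0 replicate 1 or LL ZT0 replicate 3 or 4, and 0.0501 without the filter). At ZT12 the order of the means was the other way, 54.76 ± 2.63 in SL and 62.53 ± 8.62 CPM (SD, n = 4) in LL, with overlap and an adjusted p of 0.162. Atg2b was higher in SL at ZT6, 54.84 ± 1.46 against 45.75 ± 2.31 CPM, by 0.26 ± 0.09 on the log2 scale (edgeR adjusted p = 0.0371). That call was lost when any 1 of SL ZT6 replicates 1 to 4 or LL ZT6 replicates 1, 3 or 4 was left out (up to 0.124) or without the filter (0.0939). Atg2b shares 383 exon bases with Gskip on the other strand, which had 4665 reads against 23871. Wipi2, which reads the lipid made by the kinase and recruits the conjugation machinery, passed the interaction at 0.0323, a call lost in 10 of 41 settings (at most 0.0786 with a library left out, and 0.354 without the filter). Wipi1, its relative, and Atg9a, the membrane protein of the donor vesicles, did not (0.854 and 0.348). In LL ZT12 replicate 3, the library least like its group mates, Atg9a measured 18.09 CPM against 49.54, 49.36 and 50.2. At ZT0, ZT6 and ZT18 the SL and LL mice did not overlap in Atg9a. Its log2 differences there were 0.28 ± 0.17, 0.16 ± 0.16 and -0.20 ± 0.16, without a call.

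Of the 9 conjugation genes, Atg3 was the clearest. Atg3 is the enzyme that transfers ATG8 proteins to lipid (ENSMUSG00000022663, chr16:45158785-45188538, plus strand), and it measured 65.3, 62.5, 62.5 and 58.7 CPM in SL at ZT18 and 73.7, 74.9, 79.4 and 80.2 in LL. The groups did not overlap, and the log2 difference was -0.31 ± 0.08 (edgeR adjusted p = 0.0112, at most 0.0487 in 42 other settings). At ZT12 they did not overlap either, with 74.5, 71.5, 71.2 and 70.4 CPM in SL and 83.3, 76.8, 93.0 and 79.7 in LL, but the adjusted p was 0.0774. At ZT0 and ZT6 they overlapped, with means of 73.21 against 69.83 and 77.37 against 68.49 CPM. Atg3 varied over the day in both photoperiods (adjusted p = 0.0253 in SL and 0.0271 in LL). Each of these time of day calls was lost in 5 of 42 settings. Among these were, for SL, leaving out SL ZT6 replicate 4 or SL ZT18 replicate 2, 3 or 4 (up to 0.0988) and, for LL, leaving out LL ZT6 replicate 4 or LL ZT12 replicate 1 (up to 0.062). The SL call was also lost without the filter (0.114), and the LL call without the filter (0.0847), with only LL libraries fitted (0.11) and without the 4 libraries that stood apart (0.106).

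Atg12, the ubiquitin-like protein joined to Atg5, passed the interaction at 0.0217, or 0.0582 without SL ZT0 replicate 4 and 0.096 without the filter, with no call at a single ZT. Atg10, the enzyme that makes that joint, was lower in SL at ZT12, with 4.014 ± 0.347 against 5.627 ± 0.499 CPM (SD, n = 4), by -0.49 ± 0.15 on the log2 scale (edgeR adjusted p = 0.0278). Leaving out SL ZT12 replicate 2, 3 or 4 or LL ZT12 replicate 1 or 3 ended that call (up to 0.0906), as did leaving out the 4 libraries that stood apart (0.0963), no filter (0.0692) and only the groups compared (0.0734). Atg16l1, which carries the pair to the membrane, varied over the day in SL with a p close to the threshold (0.0435), lost in 21 of 42 settings. The activating enzyme Atg7, the Atg12 partner Atg5 and the proteases Atg4b, Atg4c and Atg4d passed no test in these comparisons. Their edgeR interaction adjusted p ran from 0.122 in Atg4d to 0.991 in Atg5. Atg4d shares 1405 exon bases with Kri1 on the other strand, which had 3253 reads against 13822 for Atg4d. The labels and processing notes used here do not say whether counting used the strand, so reads of such a pair cannot be told apart.

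Map1lc3b was the ATG8 gene that differed between photoperiods over the day. It encodes an LC3 protein whose lipid-bound form marks autophagosomes (ENSMUSG00000031812, chr8:121590361-121598760, plus strand). At ZT6 it measured 88.8, 85.5, 97.6 and 80.1 CPM in SL and 62.5, 60.9, 67.7 and 61.7 CPM in LL. All SL mice were higher, by 0.48 ± 0.09 on the log2 scale (edgeR adjusted p = 0.000182, at most 0.00169 in 42 other settings). The other times gave overlapping groups, with SL and LL means of 72.74 and 67.66 CPM at ZT0, 69.15 and 72.29 at ZT12, and 70.10 and 76.91 at ZT18. Its time of day call in SL (0.00743) became 0.067 without SL ZT6 replicate 3. Map1lc3b shares 58 exon bases with Zcchc14 on the other strand, which had 22909 reads against 37565. Map1lc3a passed only the rhythm difference, at 0.0472, a call lost in 22 of 41 settings. The abundant Gabarapl1 and Gabarap, and Gabarapl2, passed none of the tests, with interaction adjusted p of 0.285, 0.328 and 0.285. The other members of the family were thus not shown to move with Map1lc3b, and the difference between them was not tested.

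Cargo receptors held the 3 smallest interaction p-values of the 37 genes, but they did not move in 1 direction. Bnip3, a mitophagy receptor of the outer mitochondrial membrane (ENSMUSG00000078566, chr7:138890836-138909519, minus strand), had the largest difference of any member. At ZT6 it measured 113, 132, 114 and 123 CPM in SL and 62.4, 53.2, 68.7 and 50.1 in LL. At ZT18 the order was turned, with 57.7, 50.3, 59.2 and 52.0 CPM in SL and 110.0, 97.4, 106 and 100.5 in LL. No mouse of either photoperiod overlapped with the other at these times, and the log2 difference was 1.04 ± 0.10 at ZT6 (edgeR adjusted p = 9.64e-09) and -0.92 ± 0.10 at ZT18 (1.7e-07).

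For Bnip3 at ZT12 the SL mice measured 88.5, 78.0, 78.4 and 77.7 CPM and the LL mice 103, 100.4, 95.2 and 99.6. These groups also stood apart, by -0.30 ± 0.10 (edgeR adjusted p = 0.0374), but the call was lost without SL ZT12 replicate 2, 3 or 4 or LL ZT12 replicate 1, 2 or 4 (up to 0.0972), without the filter (0.055) and with only the groups compared (0.0772). At ZT0, with 73.6, 103, 79.3 and 73.8 CPM in SL and 62.0, 69.6, 76.2 and 64.0 in LL, the groups overlapped and the difference was 0.28 ± 0.10 (0.0694). Bnip3 is also expressed in muscle, and the summed muscle markers averaged 60.35 CPM in LL ZT18 and 10.49 in SL ZT18. In SL ZT6 and LL ZT12, where Bnip3 averaged 120.5 and 99.57 CPM, the muscle markers averaged 0.633 and 1.031. In the 4 LL ZT18 mice, replicates 1 to 4, that sum was 21.66, 46.91, 163.7 and 9.092 CPM, and the part of muscle RNA in the Bnip3 values was not tested. Without the 4 libraries that stood apart the log2 difference was 1.06 at ZT6 and -0.96 at ZT18. Exons of Bnip3 share 504 bases with Gm45507 on the other strand, which had 6 reads in all.

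Sqstm1, the receptor that links ubiquitin-tagged cargo to ATG8 proteins and is itself degraded by autophagy (ENSMUSG00000015837, chr11:50199366-50210827, minus strand), ran the other way. At ZT6 it measured 213, 207, 227 and 225 CPM in SL and 265, 324, 267 and 308 in LL. At ZT18 it measured 302, 271, 332 and 329 CPM in SL and 230.3, 243, 224 and 254 in LL. SL was below LL in all mice at ZT6, by -0.42 ± 0.08 on the log2 scale (edgeR adjusted p = 0.000223), and above LL in all mice at ZT18, by 0.37 ± 0.08 (0.00141). At ZT12 the SL mice, at 252, 308, 279 and 281 CPM, were also all above the LL mice, at 239, 248, 242 and 219.6, by 0.24 ± 0.08 (0.0367). That last call was lost without SL ZT12 replicate 2, 3 or 4 or LL ZT12 replicate 1 or 4 (up to 0.147), without the filter (0.193) and with only the groups compared (0.189). At ZT0, with 276, 268, 268 and 250.8 CPM in SL and 305, 267, 306 and 292 in LL, the groups overlapped. Sqstm1 shares 580 exon bases with Mrnip on the other strand, which had 1333 reads against 137675.

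Optn, a ubiquitin-binding receptor of mitochondria and bacteria (ENSMUSG00000026672, chr2:5020642-5064051, minus strand), differed most at ZT0 and ZT12. At ZT0 it measured 114, 119, 113 and 107 CPM in SL and 91.7, 83.6, 100.7 and 95.01 in LL. At ZT12 it measured 89.1, 91.7, 92.6 and 91.9 CPM in SL and 117, 120.2, 130.4 and 104 in LL. Groups did not overlap at either time, and the log2 difference turned from 0.29 ± 0.07 (edgeR adjusted p = 0.00493, and 0.0626 without the filter) to -0.37 ± 0.07 (0.000404, and 0.0578 with only the groups compared). At ZT6 the SL mice, at 111, 112, 109 and 111 CPM, were above the LL mice, at 87.0, 102, 98.4 and 97.8, but the adjusted p of 0.0453 was lost in 21 of 42 settings. At ZT18 the groups overlapped, with means of 93.03 and 102.5 CPM.

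Bnip3l, the paralog of Bnip3 that clears mitochondria from maturing red cells, was higher in SL at ZT6, with 45.55 ± 5.82 against 36.73 ± 3.45 CPM (SD, n = 4), by 0.31 ± 0.10 on the log2 scale (edgeR adjusted p = 0.0262). Leaving out SL ZT6 replicate 2 or 3 or LL ZT6 replicate 3 or 4 ended the call (up to 0.133), as did only the groups compared (0.0612), and SL ZT6 replicate 3 or LL ZT6 replicate 4 also ended the interaction call (up to 0.0588). Summed erythroid markers averaged between 345.0 and 382.7 CPM in the 8 groups, and their part in the Bnip3l values was not tested. A processed pseudogene of Bnip3l had 134 reads in all, so the split of reads between them is uncertain. Nbr1, a receptor that works with Sqstm1, passed no test (interaction adjusted p 0.505).

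**Figure D3:**
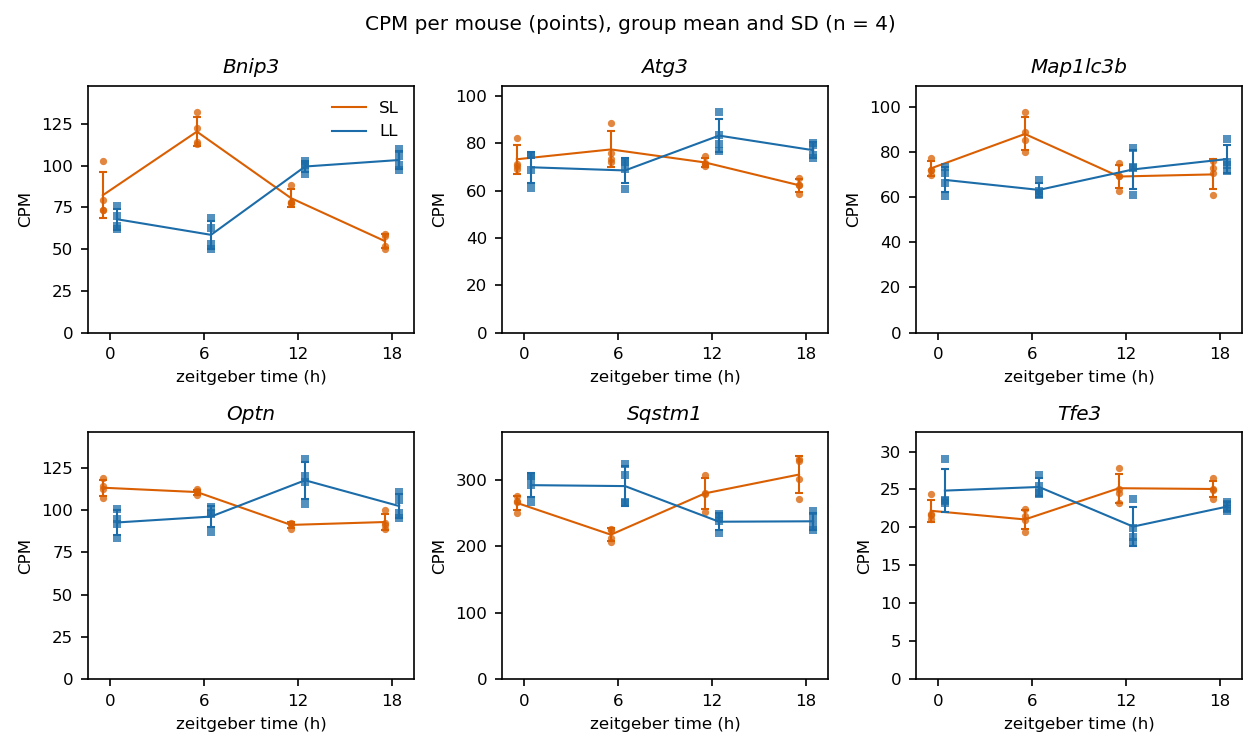
CPM of 6 members in each mouse (points; circles SL, squares LL) by ZT, with lines through group means and bars of 1 SD (n = 4). Bnip3 is highest at ZT6 in SL and at ZT18 in LL, while Sqstm1 and Tfe3 are lowest at ZT6 in SL and at ZT12 in LL.

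Tfe3 and Tfeb encode related factors that switch on lysosomal and autophagy genes when MTORC1 is inactive. Tfe3 (ENSMUSG00000000134, chrX:7762560-7775202, plus strand) measured 22.4, 20.9, 21.5 and 19.3 CPM in SL at ZT6 and 24.4, 25.5, 24.51 and 26.97 in LL. At ZT12 it measured 24.53, 27.8, 25.1 and 23.3 CPM in SL and 18.0, 19.9, 18.8 and 23.7 in LL. SL was thus lower at ZT6 without overlap, by -0.27 ± 0.08 on the log2 scale (edgeR adjusted p = 0.0243), and higher at ZT12, by 0.32 ± 0.08 (0.00921), where LL replicate 4 overlapped with SL. The ZT6 call ended without SL ZT6 replicate 4 or LL ZT6 replicate 4 (up to 0.0893) or the filter (0.171). The ZT12 call ended without SL ZT12 replicate 2 (0.051), without the filter (0.0775) and with only the groups compared (0.15). At ZT0 it measured 24.4, 21.6, 21.1 and 21.7 CPM in SL and 23.5, 29.03, 23.2 and 23.6 in LL, with overlap. At ZT18 the means were 25.06 and 22.75 CPM, without overlap and without a call (0.357).

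Tfeb (ENSMUSG00000023990, chr17:47737030-47792419, plus strand) passed no test. Its level lay between 6.31 and 10.4 CPM in the 16 SL mice and between 6.78 and 12.3 in the 16 LL mice, and the groups overlapped at every ZT. The log2 difference was 0.10 ± 0.15 at ZT0, 0.16 ± 0.15 at ZT6, -0.13 ± 0.15 at ZT12 and 0.02 ± 0.15 at ZT18, with an interaction adjusted p of 0.646. Whether Tfe3 and Tfeb differ from each other was not tested.

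Time of day was called in 11 of 37 genes in SL, against 19.1% of all genes, and in 6 in LL, against 18.3%. The SL calls were Ulk1, Atg13, Atg14, Atg2b, Atg3, Atg16l1, Map1lc3b, Sqstm1, Optn, Bnip3 and Tfe3, and the LL calls Atg2a, Atg3, Sqstm1, Optn, Bnip3 and Tfe3. That more members passed in SL is not a test of a difference between photoperiods. The LL count was 10 members and 3098 genes without LL ZT12 replicate 3, and 2 members and 1655 genes when only LL libraries were fitted. The SL call of Tfe3 (edgeR adjusted p = 0.0442) was lost in 25 of 42 settings and the LL call of Atg2a (0.0414) in 19. The LL call of Tfe3 (0.0131) became 0.0547 without LL ZT12 replicate 1, 0.0694 without the 4 libraries that stood apart, 0.086 with only LL libraries fitted and 0.129 without the filter. The LL call of Optn (0.0019) became 0.054 with only LL libraries fitted.

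A 24 h wave drawn through the 4 ZT means gives each gene a peak time and an amplitude, the log2 distance from its mean to its peak. Over the 37 genes the median amplitude was 0.13 in SL and 0.10 in LL, against 0.15 and 0.16 over all tested genes. Both photoperiods gave a time of day call in 5 members, Atg3, Sqstm1, Optn, Bnip3 and Tfe3, against 12.1% of all genes. The Bnip3 peak fell at 5.90 ± 0.33 h (SE) under SL and at 15.74 ± 0.38 h under LL, a shift of -9.84 ± 0.50 h. Every shift is written as a negative value, an earlier peak in SL on the ZT scale. That sign is a convention: on a 24 h cycle each shift equals a later peak by the rest of the 24 h. Atg3 peaked at 5.67 and 14.25 h, a shift of -8.58 ± 1.39 h, and Optn at 2.59 and 12.97 h, a shift of -10.38 ± 0.99 h. Sqstm1 and Tfe3 had their peaks on the other side of the cycle, at 17.43 and 2.93 h for Sqstm1 (-9.50 ± 0.91 h) and 15.65 and 1.80 h for Tfe3 (-10.15 ± 1.39 h).

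These shifts were close to each other although the peaks were not: their median was -9.84 h, beside -10.08 h for all 1752 genes with a call in both and -9.72 h for 6 clock genes. Nr1d1, a clock repressor, had its peak at 22.50 h under SL and 8.29 h under LL. The amplitudes of these 5 genes, whose difference between photoperiods was not tested, were 0.57 in SL and 0.49 in LL for Bnip3, 0.25 and 0.21 for Sqstm1, 0.20 and 0.18 for Optn, 0.15 and 0.17 for Tfe3 and 0.16 and 0.15 for Atg3. Their medians, 0.20 and 0.18, were below those of the 1752 genes, 0.36 and 0.35. Of the 16 genes with an interaction call, 9 peaked between 2.202 and 6.81 h in SL and between 12.97 and 19.76 h in LL (Bnip3, Optn, Map1lc3b, Atg14, Atg3, Rb1cc1, Atg2b, Bnip3l and Ambra1). Another 3, Sqstm1, Tfe3 and Atg13, peaked between 15.65 and 17.43 h in SL and between 1.80 and 3.41 h in LL. These windows were chosen after the values were seen, and of these genes only Bnip3, Optn, Atg3, Sqstm1 and Tfe3 had a time of day call under both light schedules.

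**Figure D4:**
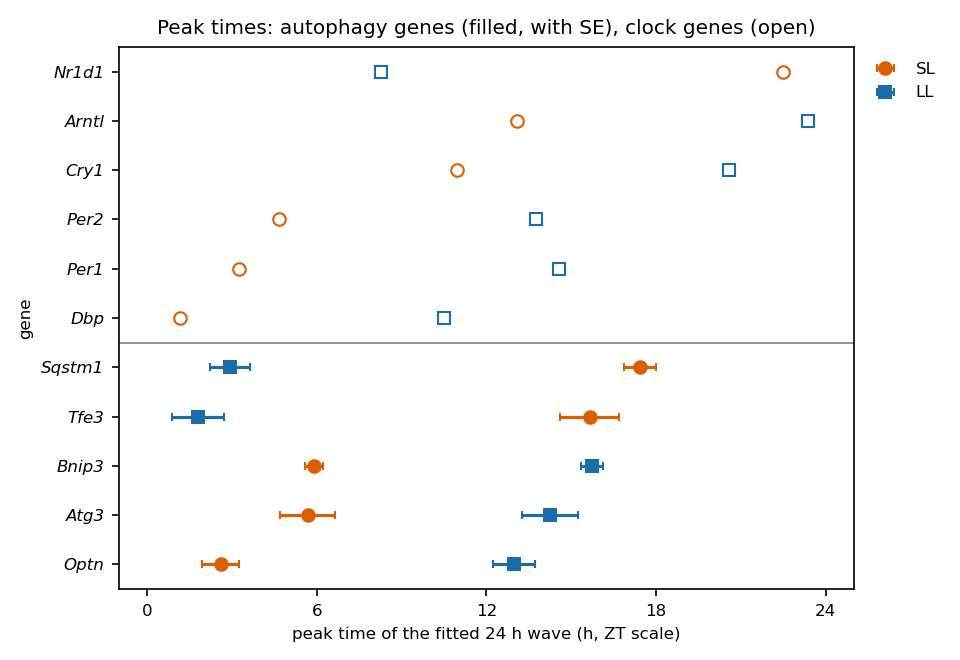
Peak time in hours on the ZT scale of the fitted 24 h wave in SL (circles) and LL (squares) for 5 autophagy genes (filled, bars are SE) and 6 clock genes (open). Bnip3 peaks at 15.74 h in LL and 5.90 h in SL, and Sqstm1 at 2.93 h in LL and 17.43 h in SL.

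With each SL group set beside the LL group sampled 12 h later on the ZT scale, the interaction called 0 of 37 members by edgeR, against 0.519% of all genes. At an unadjusted p under 0.05 by edgeR there were 3, Bnip3 (edgeR adjusted p = 0.114), Gabarapl1 (0.436) and Sqstm1 (0.486). DESeq2 called Bnip3 in the same comparison (adjusted p = 0.0189), and so did edgeR without SL ZT0 replicate 2 (0.0145), the mouse with 103 CPM of Bnip3. The move of 12 h, which is 2 steps of the 6 h sampling grid, was chosen with earlier results known. It describes the data and does not measure the shift.

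Other genes of the pathway were read from lists of their own. Of 23 further autophagy genes, 6 had an interaction call (26.1%), near the 32.7% of all genes. Vmp1, which moves lipid at the endoplasmic reticulum, was lower in SL at ZT0, 95.52 ± 4.57 against 122.5 ± 8.55 CPM (SD, n = 4), and higher at ZT12, 123.5 ± 4.71 against 88.69 ± 3.42 (edgeR adjusted p = 0.00271 and 9.66e-05). Zfyve1, a marker of the membrane platform where autophagosomes form, was higher in SL at ZT6 by 0.36 ± 0.11 and lower at ZT18 by -0.48 ± 0.11 (log2, adjusted p = 0.027 and 0.00511). Among 13 mitophagy and ER-phagy genes there were 5 calls, 38.5%. Fundc1, a mitophagy receptor like Bnip3, was lower in SL at ZT0, 6.153 ± 0.671 against 9.051 ± 0.59 CPM, and higher at ZT12, 8.108 ± 0.777 against 5.847 ± 0.39 (edgeR adjusted p = 0.00332 and 0.0103). The peaks of Fundc1, at 11.65 h (SL) and 23.17 h (LL), fell later than those of Bnip3. Fundc1 had no time of day call in SL (edgeR adjusted p = 0.1039), and the lag was not tested. Phb2, an inner membrane receptor, was lower in SL at ZT12 by -0.29 ± 0.09 (0.0259).

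Of 25 lysosome genes, 7 had an interaction call, 28% against 32.7% of all 14456 genes. Npc1, the cholesterol exporter of the lysosome, was higher in SL at ZT0, 198.5 ± 30.9 against 115.6 ± 16.3 CPM (SD, n = 4), and Mcoln1, its calcium channel, was higher at ZT0 by 0.39 ± 0.09 and lower at ZT12 by -0.38 ± 0.09 (log2, edgeR adjusted p = 0.00458 and 0.00449). Of 26 genes of nutrient sensing by MTORC1 and AMPK, the kinases that hold back and start autophagy, 10 had a call, 38.5% against the same 32.7%. Ddit4, an inhibitor of MTORC1, was lower in SL at ZT0, 6.074 ± 1.27 against 16.34 ± 3.06 CPM, and higher at ZT6, 16.43 ± 4.71 against 8.96 ± 0.603 (edgeR adjusted p = 0.000163 and 0.0084). Fnip1, a partner of folliculin in that pathway, was higher in SL at ZT6 by 0.72 ± 0.13 and lower at ZT12 by -0.52 ± 0.13 (0.000242 and 0.0084).

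Of 12 transcription factors tied to autophagy genes, 8 had an interaction call, 66.7% against 32.7% of all genes. Foxo3, a FOXO factor that activates Bnip3 and other autophagy genes in muscle, was higher in SL at ZT0, 66.64 ± 5.52 against 37.26 ± 3.07 CPM (SD, n = 4), and lower at ZT12, 41.29 ± 5.22 against 67.58 ± 7.39 (edgeR adjusted p = 4.02e-07 and 4.58e-06). Foxo1 was higher in SL at ZT6, 57.58 ± 9.15 against 26.72 ± 3.40 CPM, by 1.11 ± 0.14 (edgeR adjusted p = 1.2e-06). Foxo1 had its peak at 4.90 h under SL and 15.92 h under LL, and Foxo3 at 3.61 and 13.16 h. A link between Foxo1 or Foxo3 and the Bnip3 values was not tested. Foxo3 was also called with LL taken 12 h later (0.0472). These lists were chosen with results of these data known, and the share of calls in a list is a description beside that of all genes.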

How the data were processed

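Polyadenylated RNA of 32 mouse livers was sequenced after a stranded library preparation, per the labels' protocols. Per the submitters' processing notes, bcl2fastq 2.20.0, STAR 2.7.2b and featureCounts 1.6.2 were used with GRCm38 (mm10). For the counting, strand setting, multimapping and annotation were not given in the sources used here. As counts, the authors deposited whole reads per gene, not normalized, which were the input of every main test. The authors also deposited log2 values for 13432 genes, used here for the members' symbols and as an alternative.

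Counts were scaled with TMM factors, filtered by filterByExpr by group (14456 genes kept) and tested with edgeR 4.0.16 in R 4.3.3. A single quasi-likelihood fit held the 8 group means, without a block. P-values were adjusted by Benjamini-Hochberg over all 14456 genes, and 0.05 was the threshold. CPM used TMM-scaled totals. Peak times and amplitudes came from the fitted group means (ZT0 minus ZT12, ZT6 minus ZT18), with SE by the delta method. With 4 times 6 h apart, only a 24 h wave can be drawn. Gene bounds came from GENCODE M21 (GRCm38), which held 55144 of 55471 identifiers, and promoters from RefSeq (GRCm38.p6). The procedure was tested on simulated data.

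The members, lists and tests were chosen with earlier results of these data known. Values of single mice, at the times a result turns on, are given for the 10 members with the smallest interaction p, with the range for Tfeb, and the 2 genes of each pathway list with the smallest interaction p are named. Other members were described by role. Replicate numbers did not pair mice across groups: deviations of same-numbered libraries correlated at -0.0003 on average (112 pairs, -0.2628 to 0.243). Within groups, 48 pairs of libraries differed by more than counting noise (chi-square per degree of freedom at least 6.194). Alternatives were DESeq2 1.42.0 size factors and test, limma-voom and limma 3.58.1 on the authors' log2 values, other scaling, no filter, a mean CPM of at least 1, only the groups compared, the replicate block and each library left out. Added after seeing the data, 4 libraries were left out together for a mean correlation with group mates under 0.975 or a muscle marker sum over 40 CPM.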

Additional observations from a re-analysis of the deposited data

Results flagged for a closer look

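In groups of 4 mice, 4 of 88 groups of the named members held a mouse whose gap to the nearest of the others passed Dixon's critical value for 4 samples, and chance flags about 5% of groups. These were Bnip3 in SL ZT12 replicate 1 at 88.45 CPM, Tfe3 in LL ZT0 replicate 2 at 29.03 CPM, Tfeb in LL ZT12 replicate 3 at 12.27 CPM and Tfeb in LL ZT18 replicate 1 at 10.58 CPM. LL ZT0 replicate 2 and LL ZT12 replicate 3 are among the 4 libraries that stood apart.

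For 16 members the change over the day differed between photoperiods (edgeR quasi-likelihood interaction test). The adjusted p was 2.16e-11 for Bnip3, 2.31e-06 for Sqstm1, 7.24e-06 for Optn, 0.00057 for Tfe3, 0.000781 for Map1lc3b and 0.00149 for Atg14. It was 0.0025 for Atg3, 0.00404 for Atg13, 0.00552 for Ulk1, 0.00868 for Atg2a and 0.00898 for Rb1cc1. The larger adjusted p-values were those of Atg2b at 0.0133, Bnip3l at 0.0171, Atg12 at 0.0217, Ambra1 at 0.0275 and Wipi2 at 0.0323. The sign of SL minus LL from ZT0 to ZT18 was plus, plus, minus, minus in 8 of the 16 and the reverse in Sqstm1 and Tfe3.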

How the results depend on the processing

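No member difference called at a single ZT reversed. Genes of the pathway lists and clock genes were not recomputed under the alternatives. Of 924 recomputed differences at a single ZT, 837 kept direction and side of the threshold and 87 lost the call. Of 2108 recomputed F-tests of members, which have no direction to reverse, 1971 stayed under the threshold and 137 lost the call. The interaction count of 16 ranged from 13 to 19 over settings and from 14 to 20 with a library left out, the rhythm count of 18 from 13 to 20 and 16 to 21, and the SL time of day count of 11 from 9 to 15 and 8 to 16. Without the filter the counts were 3 for time of day in LL, 1 at ZT0 and 1 at ZT12. With only the groups compared they were 2 for time of day in LL and 0 at ZT12, where the counts over all genes were 1655 in place of 2650 and 723 in place of 1799. Without the 4 libraries that stood apart the ZT0 count was 5. Leaving out a library gave 4 to 10 for time of day in LL, 2 to 6 at ZT0, 4 to 10 at ZT6, 1 to 7 at ZT12, 3 to 8 at ZT18 and 0 to 1 with LL taken 12 h later. DESeq2 gave 1 for that last comparison, and 228 genes in all against 75 by edgeR, which gave 250 without the filter, 150 without LL ZT12 replicate 3 and 120 without the 4 libraries. For the mean of the 4 ZTs, 0 genes in all were called, 6 by DESeq2 and 9 without the filter. The cause was not tested. The median peak shift stayed between -9.84 and -9.75 h over settings and between -10.01 and -9.53 h with a library left out. With the replicate block the counts were 16 for the interaction, 18 for the rhythm, 11 and 5 for time of day in SL and LL, and 3, 9, 5 and 5 at ZT0 to ZT18, and the calls of Atg16l1 (adjusted p = 0.0518) and Tfe3 (0.0546) in SL and of Atg2a in LL (0.0575) were lost. Another scaling moved the median difference of all genes by less than 0.1. Atg10, at about 5 CPM, rests on the fewest reads.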
